A study of Mus musculus with 15 samples.

Results

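Transcripts that mark B cells and antibody-secreting plasma cells were followed in whole liver of young, old and S6K1-deficient mice. The set was a given list of 8 genes of the 37991 in the count table, Cd79a, Cd79b, Cd22, Ms4a1, Blk, Pax5, Mzb1 and Igj. It was defined by cell type, but it was chosen with earlier results of these data known. All 8 were found, and all 8 were among the 14258 genes that passed the filter on low counts and were tested. Poly(A) RNA was sequenced from 15 livers of female C57BL/6 mice, 1 animal per library. Young WT (90 days, n = 5) and old WT (600 days, n = 5) mice were S6K1 wild type, and old KO mice (600 days, n = 5) carried a germline knockout of S6K1, the kinase encoded by Rps6kb1. There was no young KO group, so the genotypes were compared at 600 days alone, and the deletion was not limited to a cell type.

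B cells recognise antigen through a membrane immunoglobulin that signals through the paired chains CD79A and CD79B. CD22 is a sialic acid-binding coreceptor that dampens this signal, MS4A1 (CD20) is a surface protein of B cells, BLK is a Src family kinase of the receptor pathway, and PAX5 is the transcription factor that holds cells in the B lineage. When a B cell becomes a plasma cell, it switches off much of that programme and devotes itself to antibody secretion. MZB1 is an endoplasmic reticulum protein that assists antibody assembly, and IGJ is the joining chain that links IgM or IgA units into polymers. The liver holds few B-lineage cells among its hepatocytes, so such genes give low counts in whole tissue. In bulk tissue, fewer cells of a type and less RNA per cell cannot be told apart.

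On mm9 (NCBIM37, GENCODE release M1), the genes lie on 7 chromosomes. Cd22 (ENSMUSG00000030577, minus strand) spans chr7:31650421-31665361 and Cd79a (ENSMUSG00000003379, plus strand) chr7:25682400-25687216. Cd79b (ENSMUSG00000040592, minus strand) is at chr11:106172655-106176076, Ms4a1 (ENSMUSG00000024673, minus strand) at chr19:11324654-11340669, Pax5 (ENSMUSG00000014030, minus strand) at chr4:44544017-44724318 and Blk (ENSMUSG00000014453, minus strand) at chr14:63991674-64036024. Igj (ENSMUSG00000067149, minus strand) is at chr5:88949537-88956916, and the position of Mzb1 is given with its values. All 8 are protein coding, and the values are counts over a whole gene. Ms4a1 lies within an antisense long noncoding RNA, 4930526L06Rik, and Pax5 overlaps the antisense transcript Gm12462 and a microRNA. The strand setting of the counting was not stated, so reads of these antisense partners cannot be told apart from those of Ms4a1 and Pax5.

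Promoter sequence from RefSeq (GRCm38.p6, a later build than the counts) was examined for 4 of the 8 genes, Cd22, Cd79a, Pax5 and Igj. Promoters of the other 4 genes were not searched, so the motif results do not cover them. The 250 bases before the start of 2 B cell genes, Cd22 and Cd79a, and of Igj, which had the widest range of levels, are shown for comparison. The log2 levels of Cd22 and Cd79a had a Pearson r of 0.662 over the 15 libraries. That was near the median of 0.650 over the 15 pairs of B cell genes. Both strands were searched for 4 motifs of B-lineage regulation, and matches are in capitals. They were the octamer (ATTTGCAT), the core bound by PU.1 among ETS factors (GAGGAA), the EBF letters (TCCC and GGGA with any 2 bases between) and the E-box of E2A (CAGGTG). The sequences are Cd22 (chr7:30879029-30879278, minus strand), Cd79a (chr7:24897247-24897496, plus strand) and Igj (chr5:88527898-88528147, minus strand), each written towards the gene. RefSeq names Igj Jchain, and a match on the opposite strand appears as its reverse complement.
Cd22: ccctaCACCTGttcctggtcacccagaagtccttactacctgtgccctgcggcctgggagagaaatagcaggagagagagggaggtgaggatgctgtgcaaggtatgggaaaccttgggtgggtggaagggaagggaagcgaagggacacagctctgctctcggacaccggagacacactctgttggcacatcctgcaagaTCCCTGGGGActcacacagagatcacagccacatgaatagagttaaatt
Cd79a: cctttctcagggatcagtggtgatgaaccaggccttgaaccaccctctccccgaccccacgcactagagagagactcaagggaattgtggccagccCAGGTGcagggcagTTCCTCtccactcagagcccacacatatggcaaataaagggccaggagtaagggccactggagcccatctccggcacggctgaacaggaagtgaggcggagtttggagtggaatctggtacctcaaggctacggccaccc
Igj: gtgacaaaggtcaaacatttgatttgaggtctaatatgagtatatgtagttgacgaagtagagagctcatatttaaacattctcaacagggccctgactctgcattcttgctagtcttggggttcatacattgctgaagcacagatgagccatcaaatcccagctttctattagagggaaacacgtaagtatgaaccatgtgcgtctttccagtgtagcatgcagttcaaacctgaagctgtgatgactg
In Cd22 the EBF letters began 49 bases before the start and an E-box, on the minus strand of the gene, 245 bases before it. In Cd79a an E-box began 154 bases and the PU.1 core, again on the opposite strand, 140 bases before the start, and no matches overlapped. Igj and Pax5 held none of the 4 motifs in this window, and no octamer was found in any of the 4 promoters. Of 32851 mouse promoters of the same length, 0.779% held the EBF letters, 1.6% the octamer, 17.2% the E-box and 23.3% the PU.1 core. A match is a match of letters, not a site shown to be bound.

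Total counts were 21801754 to 38065359 per library. CPM are counts scaled to library size after TMM, a correction for RNA composition. Rps6kb1 had 38.3 ± 4.21 CPM (SD, n = 5) in old WT and 17.0 ± 2.23 CPM (SD, n = 5) in old KO livers (log2 fold change -1.17, edgeR adjusted p = 8.54e-06), and the 8 hepatocyte markers examined summed to 88955 to 154252 CPM per library. Of 10 pancreas acinar genes, 7 were at 0 in every group. The labels give no sequencing batch, and all pairs of replicates differed beyond sampling noise.

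Igj was the member that differed most between the groups. In the young WT group, libraries 1, 2, 3, 4 and 6 held 1.16, 0.488, 0.619, 0.482 and 0.905 CPM. In the old WT group, libraries 1, 4, 5, 7 and 10 reached 5.28, 27.4, 3.67, 16.6 and 8.96 CPM. The knockout libraries 1, 2, 4, 5 and 6 reached 63.9, 15.7, 10.2, 32.3 and 10.8 CPM. Every old liver, of either genotype, was above every young liver, while old WT and old KO livers overlapped. The means were 0.730 ± 0.294, 12.4 ± 9.77 and 26.6 ± 22.7 CPM (SD, n = 5 each). The SD of old WT was 14.8 times and that of old KO 22.1 times what counting error alone would give, so the livers of a group differed from each other far beyond counting error. Igj rose 16.8-fold with age (log2 fold change 4.07, SE 0.68, edgeR adjusted p = 0.00134), and the exact 2-sided permutation test gave p = 0.00794, the smallest that 5 against 5 animals allows.

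Mzb1 (ENSMUSG00000024353, 2010001M09Rik in the annotation used) lies on the minus strand at chr18:35806920-35809021 and was counted 4 to 7 times in each young library. The young WT livers had 0.105, 0.214, 0.228, 0.181 and 0.172 CPM, in the same order of libraries as above. Old WT livers had 0.375, 1.28, 0.0894, 1.10 and 0.331 CPM, and old KO livers 0.973, 0.581, 0.300, 1.26 and 0.557 CPM. Of the 5 old WT livers, 4 were above every young liver and library 5, with 3 counts, was below all of them, whereas all 5 old KO livers were above the young range. Mzb1 rose with age (log2 fold change 1.78, SE 0.59, edgeR adjusted p = 0.0442), but the exact 2-sided permutation test gave p = 0.103. The spread of young livers was 0.62 times the counting error, that is, no larger than sampling of a few reads would produce.

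Ms4a1 was the B cell gene with the largest age difference. Its level was 0.289, 0.275, 0.814, 0.753 and 0.862 CPM in young WT livers. It was 2.37, 3.84, 0.834, 2.05 and 0.514 CPM in old WT and 1.72, 1.27, 0.385, 1.76 and 0.789 CPM in old KO livers. In each old group 3 of the 5 livers were above all young livers, and the rest lay within the range of the young. Ms4a1 was higher with age (log2 fold change 1.70, SE 0.52, edgeR adjusted p = 0.0324), with an exact permutation p of 0.0635.

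The receptor chains and their coreceptor varied less. Cd79a ranged over 0.671 to 1.54 CPM in the young, 0.882 to 3.06 CPM in the old WT and 0.899 to 2.25 CPM in the knockout livers, with group means of 1.11 ± 0.318, 1.77 ± 1.08 and 1.64 ± 0.611 CPM (SD, n = 5 each). Cd79b ranged over 0.702 to 1.72, 1.31 to 2.81 and 0.728 to 2.07 CPM in the same groups. The old WT livers fell apart in Cd79a, with old WT 4 and 7 at 3.06 and 2.82 CPM and the other 3 at or below 1.09 CPM, inside the young range.

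Cd22, the inhibitory coreceptor, had 1.82, 1.40, 2.51, 2.32 and 2.07 CPM in young WT livers. It had 3.68, 3.84, 1.43, 5.46 and 2.20 CPM in old WT livers and 3.29, 2.14, 0.856, 1.76 and 1.11 CPM in old KO livers. Of the old WT livers 3 were above the young range, and of the old KO livers 2 were below it and 1 above it, and the old groups overlapped.

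The kinase gene Blk and the transcription factor gene Pax5 had levels near or below 1 CPM. Young WT livers held 0.397 to 1.03 CPM of Blk, old WT livers 0.478 to 1.28 CPM and old KO livers 0.428 to 0.935 CPM. Pax5 ranged over 0.0862 to 0.521, 0.147 to 0.675 and 0.232 to 0.412 CPM, which is 2 to 19 counts per library. For both genes the 3 groups overlapped. The spread of Pax5 was 2.23, 1.76 and 0.64 times the counting error in young WT, old WT and old KO livers.

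**Figure D1:**
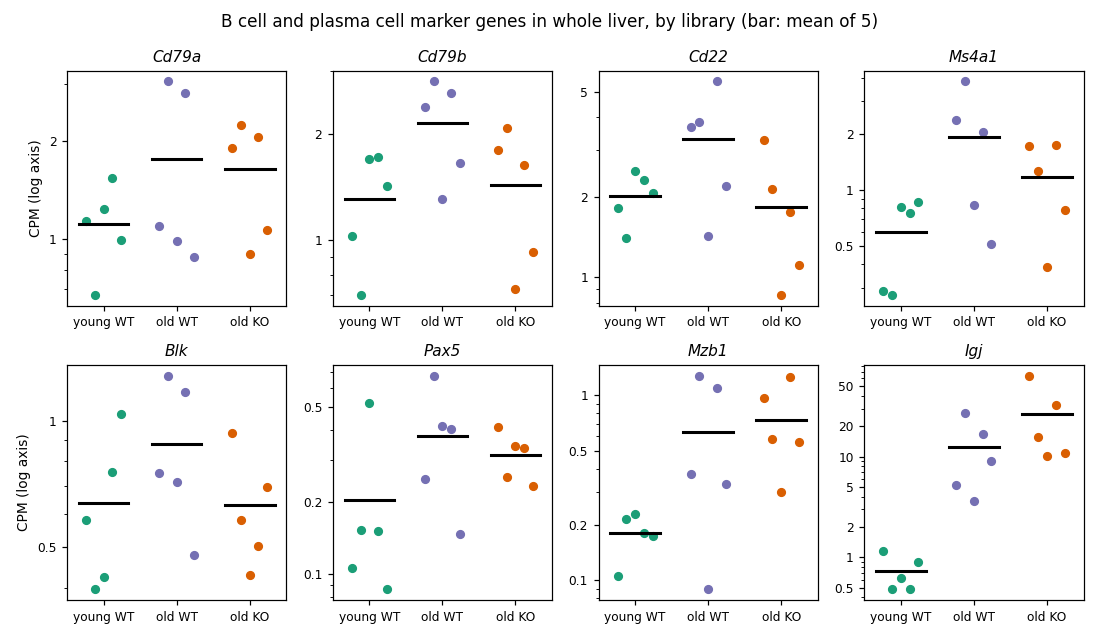
Level of each marker gene in every library, in CPM on a log axis that differs between panels, with points for the 5 animals of a group in order of library number and a bar for their mean. Igj in all 10 old livers lies above the young livers, while the 6 B cell genes overlap between groups.

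The members were next compared per kilobase of exon, a scale on which different genes can be set side by side. In young WT livers the order of mean levels was Cd79b (0.917 CPM per kb), Cd79a (0.764), Cd22 (0.469), Igj (0.403), Blk (0.257), Ms4a1 (0.237), Mzb1 (0.199) and Pax5 (0.0593 CPM per kb), and every neighbouring pair overlapped in range. In old WT livers Igj led with 6.83 CPM per kb and its range did not overlap that of Cd79b, the next at 1.50 CPM per kb. Igj also led in old KO livers with 14.6 CPM per kb, without overlap with Cd79a at 1.12 CPM per kb. Among the other neighbours in the old groups, only Blk over Pax5 in old KO livers was free of overlap.

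The comparison of old WT with young WT livers asked which B-lineage transcripts changed with age. With a threshold of 0.05 on the edgeR adjusted p, 3 of the 8 genes passed, Igj, Mzb1 and Ms4a1, and all 3 were higher in old livers. Over all genes tested, 9.92% passed in that direction. The other 5 genes had positive log2 fold changes that did not pass, 0.71 for Cd22 (SE 0.35, edgeR adjusted p = 0.169), 0.71 for Cd79b (SE 0.31, 0.116), 0.65 for Cd79a (SE 0.38, 0.241), 0.88 for Pax5 (SE 0.46, 0.198) and 0.48 for Blk (SE 0.32, 0.310). The median log2 fold change of the 8 genes was 0.80, beside 0.01 over all genes tested. Igj was the only member whose groups did not overlap, beside 5.78% of all genes that were higher without overlap.

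Igj passed without each of the 15 libraries in turn, with log2 fold changes of 3.55 to 4.33. The Ms4a1 call was lost without libraries 1 (1.51) or 2 (1.52) of young WT or 1 (1.61) or 4 (1.30) of old WT, and under limma voom (1.53, adjusted p = 0.0750). The Mzb1 call was lost without any of the 5 young libraries (1.62 to 1.89), without old WT libraries 4 (1.36) or 7 (1.50) or the old KO library 2 (1.79), and under limma voom (1.23, adjusted p = 0.195). Old WT 4 had the highest level of 7 of the 8 genes in its group. Pax5 passed without young WT 3 (1.57, adjusted p = 0.0212).

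Old KO and old WT livers were compared to ask whether loss of S6K1 altered these transcripts at 600 days. None of the 8 genes passed the threshold in edgeR, DESeq2 or limma voom, and 0.533% of all genes passed in edgeR, 2.14% in DESeq2 and 0.161% in limma voom. Cd22 alone had an unadjusted edgeR p under 0.05, with -0.84 on the log2 scale (SE 0.36, unadjusted p = 0.0318, adjusted p = 0.364). Ms4a1, Cd79b, Blk, Pax5 and Cd79a had log2 fold changes of -0.68 (SE 0.49), -0.57 (SE 0.31), -0.47 (SE 0.33), -0.26 (SE 0.45) and -0.10 (SE 0.37). The 2 members taken as plasma cell genes had positive values, 1.11 for Igj (SE 0.54, edgeR adjusted p = 0.446) and 0.23 for Mzb1 (SE 0.51, edgeR adjusted p = 0.917). The value of Mzb1 ran from -0.059 to 0.66 without single libraries, so its sign was not stable. For all 8 genes the ranges of the old groups overlapped, beside 3.19% of all genes without overlap. The median of the 8 genes was -0.36, beside 0.00 over all genes. Old KO 1 carried much of the Igj value, which was 0.48 without that library and 1.63 without old WT 4. Old KO 4 was the lowest of its group for 7 of the 8 genes.

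Old KO livers were also set against young WT livers, a comparison that crosses age and genotype and shares its libraries with both comparisons above. Igj was 36.2-fold higher (log2 fold change 5.18, SE 0.69, edgeR adjusted p = 0.000181; 23.5-fold without old KO 1) and Mzb1 was 4.05-fold higher (2.02, SE 0.59, edgeR adjusted p = 0.0214). These 2 of 8 genes were called, both higher, beside 12% of all genes in that direction. Both were free of overlap, with an exact 2-sided permutation p of 0.00794 each, beside 7.32% of all genes. Ms4a1 stood at 1.02 on the log2 scale (SE 0.54, edgeR adjusted p = 0.181), Pax5 0.63 (SE 0.49) and Cd79a 0.56 (SE 0.38), and Cd79b (0.14), Blk (0.01) and Cd22 (-0.13) lay within 1 SE of 0. The Mzb1 call was lost without young WT 1 (1.86, adjusted p = 0.0560) or old KO 5 (1.74, adjusted p = 0.0601).

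**Figure D2:**
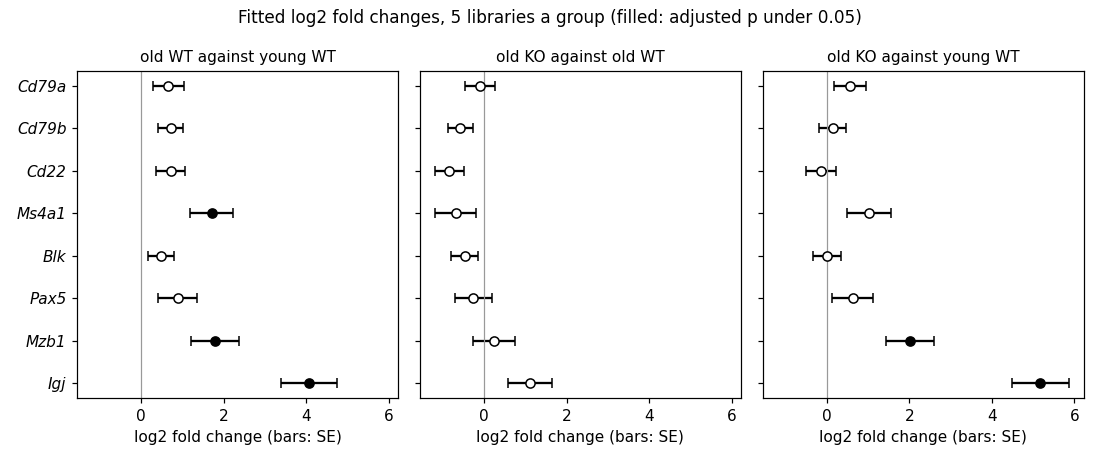
Log2 fold changes of the 8 genes from the edgeR fit in the 3 comparisons, with bars of 1 SE and filled points for an adjusted p under 0.05. Igj, Mzb1 and Ms4a1 are filled for age, no gene is filled for genotype, and Igj and Mzb1 are filled for old KO against young WT.

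Levels were then taken relative to Ptprc, which encodes CD45, a surface phosphatase of leukocytes. Ptprc had 11.7 ± 5.79 CPM in young WT, 18.1 ± 3.80 CPM in old WT and 10.5 ± 3.63 CPM in old KO livers (SD, n = 5 each), and did not pass in any comparison (edgeR adjusted p = 0.166 for age and 0.323 for genotype). The log2 difference between a gene and Ptprc was tested by exact 2-sided permutation for the 8 genes in 3 comparisons, 24 tests in all, without adjustment. With age, Igj rose by 2.85 relative to Ptprc (exact p = 0.00794), and the other 7 genes did not pass, with values from -0.35 (Blk) to 0.60 (Ms4a1). Of all genes tested, 0.505% were higher relative to Ptprc with age at an exact p under 0.05, and 25.8% were lower. Between genotypes, Igj (1.91, exact p = 0.0159), Mzb1 (1.23, exact p = 0.0397) and Cd79a (0.83, exact p = 0.0397) were higher relative to Ptprc in old KO livers. Ptprc itself had -0.78 on the log2 scale there, and 64.4% of all genes were higher relative to it at an exact p under 0.05, so 3 of 8 was below the background share. The Mzb1 call was lost without any of old KO 1, 2, 5 and 6 or old WT 1, 5 and 10 (lowest value 0.95), and the Cd79a call without any of old KO 2, 5 and 6 or old WT 1, 5 and 10 (lowest value 0.65). Against young WT livers, old KO livers were higher relative to Ptprc in Igj (4.76, exact p = 0.00794), Mzb1 (1.53, exact p = 0.0159) and Ms4a1 (0.90, exact p = 0.0317), beside 2.97% of all genes. With a pseudocount of 1 in place of 0.1, Mzb1 (0.60, exact p = 0.127) and Ms4a1 (0.49, exact p = 0.0873) did not pass.

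How the genes varied together from liver to liver was examined over all 28 pairs. Cd22 and Cd79b were the closest pair of B cell genes in log2 CPM over the 15 libraries (Pearson r = 0.890, permutation p = 2.0e-05, adjusted over 28 pairs 0.00056; Spearman rho = 0.929, permutation p = 1e-05, the smallest the resampling allows, adjusted 0.00028). It was 0.851 without the 2 libraries farthest from the median of Cd22, and 0.882 after the group means were removed. The 15 pairs of B cell genes had a median r of 0.65 and a range of 0.219 to 0.890, with Pax5 and Blk as the lowest pair. The 12 pairs of a B cell gene with Mzb1 or Igj had a median r of 0.54 and a range of 0.239 to 0.765. After the group means were removed, the medians were 0.62 for the former and 0.59 for the latter pairs. Mzb1 then had r = 0.765 with Igj, 0.760 with Cd22 and 0.754 with Cd79a, and its lowest r was 0.361, with Pax5. Mzb1 was thus about as close to Cd22 and Cd79a as to Igj. Points share a library, and so its depth and its content of leukocyte RNA.

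Because Igj separated young from old livers, its relation to other genes was computed within the 10 old livers alone. Igj and Mzb1 had r = 0.858 (permutation p = 0.0011, adjusted over 3 pairs 0.0033) and rho = 0.867 (permutation p = 0.00232, adjusted 0.00348), and r was 0.874 without the 2 libraries farthest from the median of Igj. Igj and Cd79a had r = 0.693 (permutation p = 0.0292, adjusted 0.0292) and rho = 0.673 (permutation p = 0.0388, adjusted 0.0388), and r was 0.778 without those 2 libraries. Mzb1 and Cd79a had r = 0.824 (permutation p = 0.00334, adjusted 0.00501) and rho = 0.879 (permutation p = 0.00138, adjusted 0.00348). Old livers with more Igj thus also had more Mzb1 and Cd79a, and those with more Mzb1 had more Cd79a. Young WT livers had 0.314 to 1.02 counts of Igj per count of Cd79a, old WT livers 3.73 to 10.2 and old KO livers 6.98 to 33.5. The young livers stood apart from both old groups, which overlapped.

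**Figure D3:**
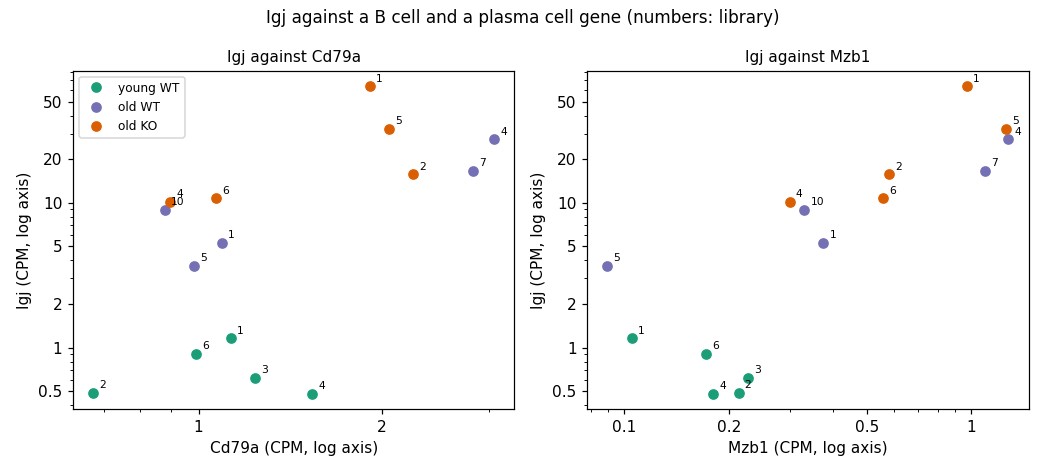
Igj against Cd79a and against Mzb1, all in CPM on log axes, with 1 point per library coloured by group and numbered by library. At similar Cd79a levels, between 0.882 and 1.54 CPM, the old livers have more Igj than the young ones.

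Immunoglobulin constant genes were the transcripts of the same pathway with the largest differences. Ighm, the heavy chain of IgM, had 5.15 ± 2.11 CPM in young WT, 57.7 ± 22.8 CPM in old WT and 213 ± 226 CPM in old KO livers (SD, n = 5 each). Old KO 1 had 607 CPM of Ighm, and the other 4 old KO livers 41.6 to 161 CPM, beside 32.8 to 80.9 CPM in old WT livers. Ighm rose with age (log2 fold change 3.49, SE 0.59, edgeR adjusted p = 0.00146) and had 1.88 between genotypes (SE 0.54, edgeR adjusted p = 0.146). Igkc, the kappa light chain, rose with age by 4.02 on the log2 scale (SE 0.55, edgeR adjusted p = 0.000367), with a genotype value of 1.43 (SE 0.47, edgeR adjusted p = 0.212). Of 6 immunoglobulin constant genes tested, 5 were higher with age, beside 9.92% of all genes, and none passed between genotypes. Ighg2c had the largest age value of these (6.04, edgeR adjusted p = 0.00303), which was 4.27 without old WT 7 (edgeR adjusted p = 0.00174). Such genes share reads with near-identical copies, so the split of counts among them is uncertain. Old KO 1 was the library with the highest level of Igj, Ighm and Igkc.

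Other B-lineage genes were taken from 5 lists written from general knowledge, of which 55 of 61 genes were tested. With age, 11 passed as higher and 3 as lower, beside 9.92% and 8.91% of all genes, and the median log2 fold change was 0.52. Between genotypes, none passed as higher and 3 as lower, beside 0.421% of all genes that were lower, with a median of -0.55. Against young WT livers, old KO livers had 3 higher and 3 lower, beside 12% and 11.3% of all genes, with a median of -0.06.

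Of 17 surface receptors tested, 3 rose with age, beside 9.92% of all genes. They were Ly86 (0.85, edgeR adjusted p = 0.0172), Tnfrsf13b (TACI, a receptor for B cell survival factors, 1.03, 0.0359) and Fcrla (1.21, 0.0499). Of the 17, 14 had positive and 3 negative age values, none of the latter passing. The negative ones, named after their values were seen, were Cr2 (-0.86, edgeR adjusted p = 0.119), Fcer2a (-0.43) and Cd38 (-0.18). All 5 old WT livers were below all young livers in Cr2, the complement receptor of B cells, beside 5.67% of all genes that were lower without overlap. The Ly86 call held without each library in turn. That of Tnfrsf13b was lost without any of young WT 1 to 4 or old WT 1, 4 and 7, and that of Fcrla without any of 11 of the 15 libraries and under both other scalings.

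Of 14 receptor signalling genes 4 rose with age, beside 9.92% of all genes. Among the 4 was Blnk, the adaptor that links the kinase SYK to its targets (1.20, edgeR adjusted p = 0.00184). Others were Pik3cd, the leukocyte PI 3-kinase (0.54, edgeR adjusted p = 0.0280), and Lyn (0.27, edgeR adjusted p = 0.0414). All 14 had negative genotype values. Blnk (-1.07, edgeR adjusted p = 0.0377) and Pik3cd (-0.84, edgeR adjusted p = 0.0337) passed as lower in old KO livers, beside 0.421% of all genes. Both genes also act in myeloid cells. The age call of Blnk held without each library, that of Pik3cd was lost without young WT 1, 2 or 4 or old WT 1, 4 or 7, and that of Lyn without young WT 1, 2 or 4, old WT 1, 4 or 10 or old KO 4. Of 9 lineage transcription factors, 2 rose with age, beside 9.92% of all genes. These were Spib (1.25, edgeR adjusted p = 0.0282) and Pou2f2 (0.97, edgeR adjusted p = 0.0359). Spi1, which encodes PU.1 and is a factor of macrophages too, fell in old KO livers by 1.22 on the log2 scale (edgeR adjusted p = 0.0290). The age call of Spib was lost without young WT 1 or 2 or old WT 1 or 4, and that of Pou2f2 without young WT 1 to 4 or old WT 1, 4 or 7. Spib, Tnfrsf13b and Fcrla also lost their age calls under limma voom. The genotype calls of Blnk, Pik3cd and Spi1 were all lost under limma voom (adjusted p = 0.052 each) and without any of old WT 1 and 4 and old KO 2, 4 and 6. Blnk also lost it without young WT 4, old WT 7 or old KO 1, Pik3cd without young WT 4, old WT 7 or old KO 5, and Spi1 without old WT 10 or old KO 5.

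Genes of the plasma cell list, beyond the members, did not move in one direction. Of 11 tested, 1 rose with age and 3 fell, beside 9.92% and 8.91% of all genes, and none passed between genotypes. Pim2 rose (0.52, edgeR adjusted p = 0.00545). Among those that fell were Sel1l3 (-1.50, edgeR adjusted p = 0.000564) and Fkbp11 (-1.10, edgeR adjusted p = 0.00648). In young WT livers the means of Sel1l3, Pim2 and Fkbp11 were 15.1, 2.72 and 2.32 CPM. Those of Igj and Mzb1 were lower there, at 0.730 and 0.180 CPM. Which cells gave the reads of the listed genes was not tested, so their changes cannot be assigned to plasma cells. Prdm1 and Irf4, the transcription factors of plasma cell fate, had group means of 0.768 to 0.978 and 0.537 to 0.909 CPM and did not pass in any comparison. Sdc1 (CD138) and Xbp1 had 341 to 416 and 132 to 158 CPM as group means, did not pass either, and are expressed by hepatocytes as well. Tnfrsf17 (BCMA), the survival receptor of plasma cells, was too rare to test. It had 0 counts in all young libraries, where a count of 0 allows up to 3, and old WT libraries had 0 to 2 and old KO libraries 0 to 6, with sums of 4 and 13 counts in the old groups.

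Markers of other leukocytes were examined beside these genes. With age, 11 of 12 pan-leukocyte, 11 of 13 T and NK cell and 12 of 14 macrophage markers had positive values. Of these 5, 3 and 1 passed, beside 9.92% of all genes that were higher. Between genotypes, 12 of 12, 13 of 13 and 14 of 14 had negative values, with medians of -0.80, -0.68 and -1.04. There 1, 0 and 8 passed, beside 0.421% of all genes that were lower. Old WT livers summed to 330 to 742 CPM of macrophage markers and old KO livers to 190 to 294 CPM, and none of these markers was at 0 in a whole group. For pan-leukocyte markers the sums were 194 to 239 and 147 to 192 CPM, and for T and NK cell markers 6.54 to 18.4 and 3.98 to 11.3 CPM. Cd22, Ms4a1, Cd79b, Blk, Pax5 and Cd79a had negative genotype values, as these lists did, and Igj and Mzb1 had positive ones. None of these members passed between genotypes, and the signs of Cd79a, Pax5 and Mzb1 changed under alternatives. The part of leukocyte content in the values of the members was not tested.

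**Figure D4:**
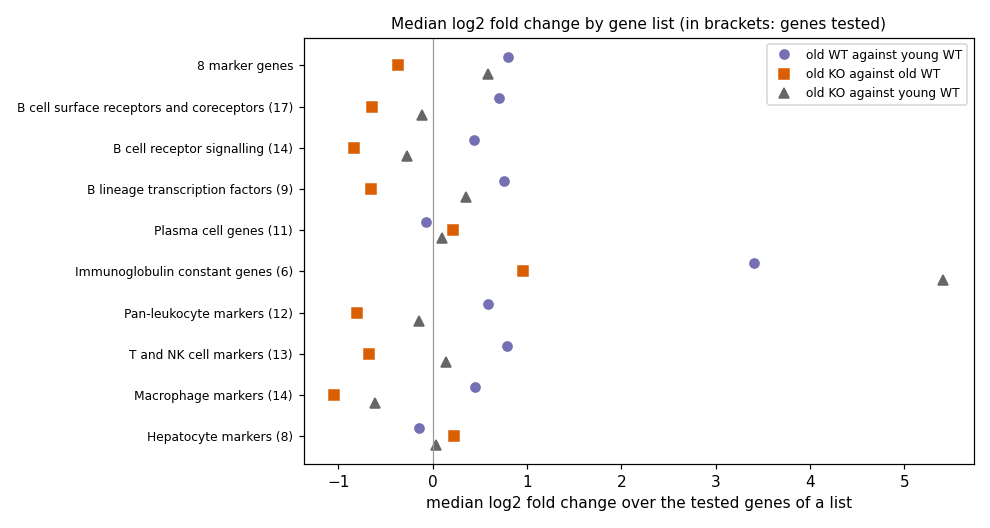
Median log2 fold change over the tested genes of each list in the 3 comparisons, with the 8 marker genes on top. Immunoglobulin constant genes have the largest age median (3.41), and the leukocyte lists lie between -1.04 and -0.68 for genotype.

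By Pearson correlation of log2 CPM over the 15 libraries with the mean of the 6 B cell genes, the most alike of 13325 genes were Snn (r = 0.922), Atp2a3 (0.905), Naip5 (0.895), Fam115c (0.873), Faim3 (0.866), Napsa (0.863), Il21r (0.860) and Spn (0.859). For the mean of Mzb1 and Igj they included Igkc (r = 0.951), 1110067D22Rik (0.948), Chka (0.943), Ighg (0.933), Cdhr5 (0.895), Gpr155 (0.890) and Cnn3 (0.890). After group means were removed, r was 0.797 to 0.894 for the first and 0.569 to 0.827 for the second set.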

How the data were processed

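Whole-liver RNA of 15 mice was prepared by the authors as stranded poly(A) libraries, sequenced as single 50-base reads, mapped to mm9 with TopHat (2.0.11 per the labels) and assigned to genes with HTSeq. The authors deposited raw counts, neither normalized nor pooled, and annotation and strand setting are not given in the sources used here. Here the counts were TMM-scaled with edgeR 4.0.16 (R 4.3.3), filtered with filterByExpr and fitted by quasi-likelihood over all 15 libraries, with Benjamini-Hochberg adjustment over 14258 genes and a threshold of 0.05. Standard errors belong to fitted log2 values. Exact permutation tests used log2(CPM + 0.1) and 252 assignments. DESeq2 1.42.0, limma voom 3.58.1, other scalings, filters and left-out libraries were alternatives. The study names DESeq2 without a formula. The edgeR step was tested on simulated data. Of 152 list entries, 140 matched by symbol, 6 by synonym and 6 not at all. The members and lists were chosen with earlier results of these data known. Besides the members, the text names fixed reference genes, at most 3 genes per list with the smallest p among those passing for age or genotype, and the 8 most alike genes per branch with a mean of at least 0.5 CPM. No test here separates animals from their libraries, since each animal gave 1. Of the genes that this rule names, 2 are not reported here.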

Additional observations from a re-analysis of the deposited data

Results flagged for a closer look

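Pax5 in young WT 3 stood far from the other libraries of its group, at 0.521 CPM (16 counts) beside 0.0862 to 0.153 CPM (2 to 5 counts) in the other 4. Without that library the age difference of Pax5 was 1.57 on the log2 scale (edgeR adjusted p = 0.0212) in place of 0.88, and that of old KO against young WT was 1.31 (edgeR adjusted p = 0.0456) in place of 0.63. Young WT 3 also had the highest Cd22, Mzb1 and Ptprc levels of its group. This was 1 flag among 24 groups examined, and chance flags about 1 in 20.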

How the results depend on the processing

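Of 538 member fold changes recomputed under alternatives, 495 kept their direction and their side of the threshold, 21 lost the call, 2 gained it and 20 changed sign, and none of 180 genotype values passed. Members called for age numbered 3, but 1 under limma voom, 1 with at least 10 counts in every library (5 members tested), 0 with the replicate number as a block and 1 to 3 without single libraries. For old KO against young WT they numbered 2, but 1 with the count minimum, 1 in the 10 libraries alone and 1 with the block, and 1 to 3 without single libraries. Over all genes, age called 2685 (899 with the block, 1748 to 3284 without single libraries), and genotype called 76 (305 in DESeq2, 23 in limma voom, 6 with the block, 9 to 108). Of the other B-lineage genes, age called 14 (3 with the block, 6 to 17) and genotype 3 (9 in DESeq2, 0 in limma voom, 5 in the 10 libraries alone, 0 with the block, 0 to 6). Same-numbered deviations correlated at -0.153 to 0.077 over 9 pairs, and different-numbered ones at -0.267 to 0.355. These values cannot show whether shared replicate numbers pair the animals, which were treated as unpaired. With the block, age values were 3.56 for Igj (adjusted p = 0.0738), 1.56 for Mzb1 (0.326) and 2.10 for Ms4a1 (0.124). Mzb1 was at an adjusted p of 0.0501 for age without a filter, and 2.20 (0.0895) for old KO against young WT with the block. Signs changed for values that had not passed. For genotype these were Cd79a (0.063 in limma voom, 0.17 with the block, -0.26 to 0.19 without single libraries), Pax5 (-0.45 to 0.040) and Mzb1 (-0.059 to 0.66). For old KO against young WT they were Cd22 (0.034 with the block, -0.45 to 0.050), Cd79b (-0.029 to 0.31) and Blk (-0.0032 with upper quartile scaling, -0.19 to 0.23). Relative to Ptprc, the members that passed numbered 1 for age (1 to 2 without single libraries), 3 for genotype (6 with a pseudocount of 1, 1 to 3) and 3 for old KO against young WT (1 with a pseudocount of 1, 3 to 4). Signs changed there for Mzb1 (-0.29 with a pseudocount of 1), Cd79b (-0.21 to 0.036) and Pax5 (-0.36 to 0.16) for age, Cd22 (0.18 with a pseudocount of 1, -0.14 to 0.14) and Ms4a1 (-0.040 to 0.56) for genotype, and Cd79b (-0.0061 to 0.28) and Blk (-0.21 to 0.24) for old KO against young WT. Causes of these changes were not tested. Pax5, Mzb1, Ms4a1 and Blk had as few as 2, 3, 9 and 10 counts in a library, which limits their precision.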

Other observations

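Factors that keep or attract B cells were mostly too rare to test, with 4 of 10 passing the filter. For age 1 of these 4 passed, beside 9.92% of all genes that were higher. Il7, a growth factor of lymphocytes, was the one that passed for age, with 0.326 ± 0.224 CPM in young WT, 2.19 ± 0.647 CPM in old WT and 1.61 ± 1.41 CPM in old KO livers (SD, n = 5 each). Its log2 fold change with age was 2.81 (SE 0.59, edgeR adjusted p = 0.00484), without overlap of the groups, and its genotype value was -0.43 (edgeR adjusted p = 0.816). Tnfsf13b (BAFF) had 27, 43 and 27 counts summed over young WT, old WT and old KO libraries and was not tested. Cxcl13, the B cell attractant, had 3.40 ± 1.51, 5.07 ± 2.90 and 2.92 ± 1.19 CPM (SD, n = 5 each) and did not pass for age (0.57, edgeR adjusted p = 0.401) or genotype (-0.78, edgeR adjusted p = 0.538). Of 4 tested germinal centre genes, S1pr2 rose with age (0.76, edgeR adjusted p = 0.00293), beside 9.92% of all genes. Of 9 counted markers of lymphoid tissue stroma, 4 were tested and none passed for age or genotype.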
